A study of Saccharomyces cerevisiae with 10 samples.

Results

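The 10 genes described here encode the enzymes with which yeast makes sugar phosphates from smaller carbon compounds, the carriers that bring such compounds in, and the activators of this pathway. They were chosen by name: the activators CAT8 and SIP4, the glyoxylate cycle enzymes ICL1, MLS1 and MDH2, the gluconeogenic enzymes PCK1 and FBP1, the acetyl-CoA synthetase ACS1, and the carboxylate carriers JEN1 and SFC1. They are 10 of 5656 genes represented on the array by a probe set assigned to a single gene. Each of the 10 had 1 probe set, and all 10 were among the 5365 genes bright enough to be tested. Commercial baker's yeast (Saccharomyces cerevisiae) had been grown in fed-batch culture and pressed, then spread on trays in an oven with air blown at 37 degrees. The groups were cells at 0 h, before drying, and cells after 1, 2, 4 and 8 h of drying, with 2 Affymetrix Yeast Genome S98 arrays at each time from experiments that the series' design text calls independent duplicates. No strain, ploidy or genotype is named in the labels. The warm air, the hours in the oven and the loss of water went together in every dried sample and cannot be told apart.

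When glucose is gone, yeast can live on ethanol, acetate or lactate. Acetyl-CoA from these sources enters the glyoxylate cycle, which skips the carbon-losing steps of the tricarboxylic acid cycle, and the resulting oxaloacetate feeds gluconeogenesis. Glucose shuts these genes off. In its absence the kinase Snf1 allows the zinc cluster activator Cat8 to act, Cat8 turns on SIP4, and Cat8 and Sip4 bind carbon source response elements before many of the enzyme genes. When glucose returns, the GID ubiquitin ligase marks several of the enzymes, fructose bisphosphatase among them, for destruction.

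Values below are log2 of the probe set signal over the median signal of the same array, called the scaled level. Changes are differences between scaled levels, tested with limma and adjusted over all 5365 genes by the Benjamini-Hochberg method, with a threshold of 0.05. Errors are limma's standard errors (SE, n = 2 arrays per time), which draw on all 10 arrays. Probe sets differ in affinity, so levels are compared between arrays and not between genes. A scaled level sets a gene's signal in the whole sample against the array median. Fewer cells that express a gene and less of its RNA per cell therefore cannot be told apart. The median signal lay between 23.6 and 115.4 units, the extremes being the 2 arrays of 8 h. Actin's 3' over 5' signal, which is high when RNA or cDNA is short, stood at 5.38 to 6.64 on replicate 1 of 0, 2 and 8 h, and on the remaining 7 arrays it spanned 2.62 to 3.9. At 0, 2 and 8 h the 7 brightest of the 10 genes all had higher scaled levels on replicate 1, the dimmer array of the pair. At 1 h, where replicate 1 was slightly dimmer, 6 of the 7 did. At 4 h replicate 2 was slightly dimmer, and 0 of the 7 were higher on it. The leaning to replicate 1 thus appeared at every time. Replicate 1 also had the higher actin ratio at every time, if barely so at 4 h (3.15 against 3.1). The cause of the leaning was not tested. Of sporulation genes, 0 of 9 passed the threshold at any dried time against 0 h by limma. At an unadjusted p under 0.05, 0 of them were higher at any dried time, and 1 was lower at 1, 2 and 8 h each and 0 at 4 h. Of all genes, 3.56%, 7.12% and 4.59% were lower at 1, 2 and 8 h by that level. Of mating and haploid-specific genes, 0 of 11 passed. At an unadjusted p under 0.05, 1 was higher and 1 lower at 1 h, beside 10.3% and 3.56% of all genes. Later 0 were lower, and 1 was higher at 2 h, 2 at 4 h and 1 at 8 h. Of all genes, 5.98%, 6.73% and 4.68% were higher at those times. Each of these lists held 12 genes, and SPO13, HOP1, SMK1 and FUS3 were too dim to be tested.

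**Figure D1:**
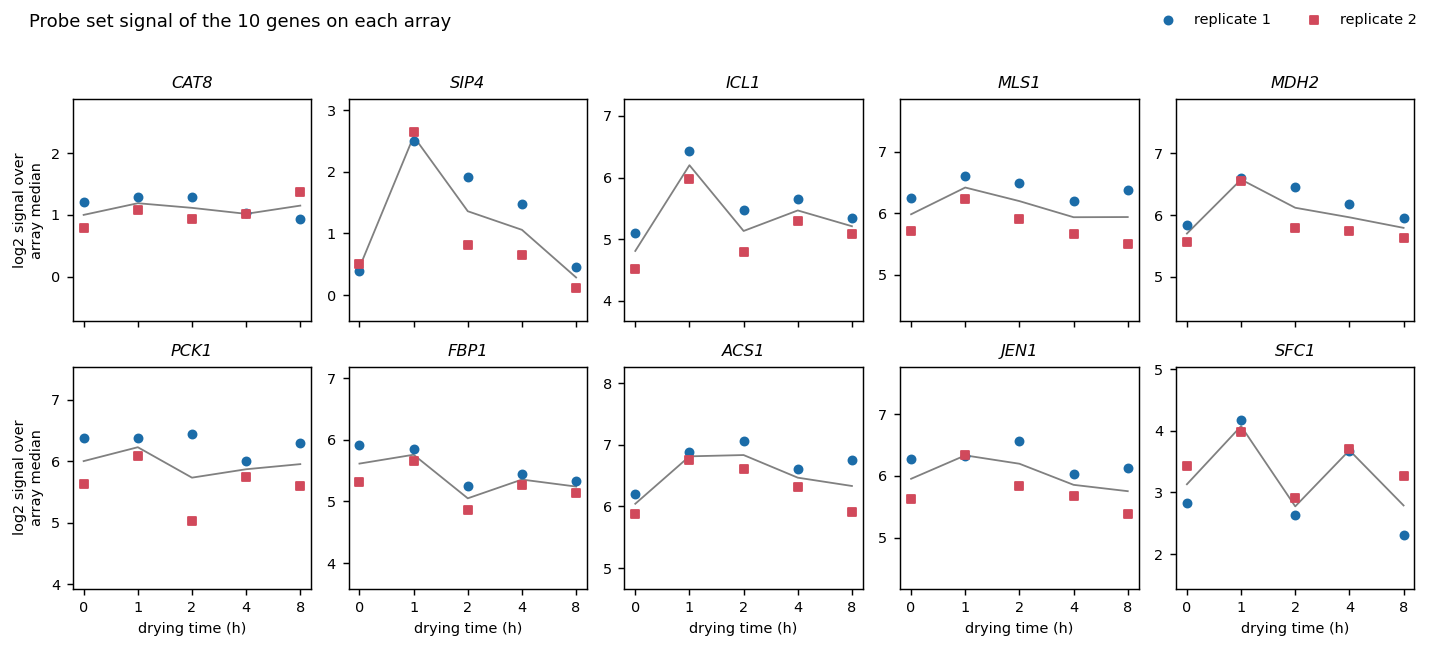
Scaled level (log2 signal over the array median) of each of the 10 genes against drying time in hours, with times evenly spaced and each vertical axis covering the same span. Circles are replicate 1, squares replicate 2 and lines join the means. SIP4 and ICL1 peak at 1 h, where SIP4 stands at 2.50 and 2.65, while CAT8 stays between 0.78 and 1.37 on all 10 arrays.

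After 1 h of drying, 2 of the 10 genes had risen against 0 h, SIP4 and ICL1, and 0 had fallen. Over all genes tested, 2.22% rose and 0.391% fell in this comparison. The 10 genes had a median change of 0.60, with changes from 0.14 for FBP1 to 2.13 for SIP4, beside a median of 0.04 over all genes. All 10 estimates were above 0, as were 53.2% of all genes, and 9 were with arrays scaled by their 75th percentile and 7 without replicate 2 of 0 h. At an unadjusted p under 0.05 there were 4 of the 10, with MDH2 and SFC1 added, all higher, beside 10.3% of all genes higher and 3.56% lower. Both 1 h arrays lay above both 0 h arrays for 6 of the 10, beside 29.4% of all genes. Over the 11 mating and haploid-specific genes the median change at 1 h was 0.70. Their summed signal was 16.5 and 12.05 times the array median at 1 h, against 11.5 and 7.87 times at 0 h. At 2 h their sums were 23.06 and 11.28 times. Their median change was 0.77 at 2 h, 0.27 at 4 h and 0.42 at 8 h. Of these dim genes, 3 were at the floor on replicate 2 of 0 h, and their part in the result was not tested.

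Of the activators, SIP4 passed at 1 h and CAT8 did not. SIP4 encodes a zinc cluster protein that binds the same promoter elements as Cat8 and is regulated by Snf1. Its scaled level was 0.38 and 0.51 at 0 h, 2.50 and 2.65 at 1 h, 1.91 and 0.81 at 2 h, 1.47 and 0.64 at 4 h, and 0.46 and 0.11 at 8 h. Both 1 h arrays thus stood above every other array. SIP4 rose at 1 h by 2.13 ± 0.35 (limma adjusted p = 0.0046), which is 4.37-fold. The change was 0.91 ± 0.35 at 2 h (adjusted p = 0.26) and 0.61 ± 0.35 at 4 h (adjusted p = 0.60), with the dried arrays above the 0 h arrays at both times. At 8 h it was -0.16 ± 0.35 (adjusted p = 0.96) and the groups overlapped. The 1 h call was lost when any 1 of the 4 arrays compared was left out, namely replicate 1 or 2 of 0 h or of 1 h, with a limma adjusted p from 0.0524 to 0.0586 and estimates from 2.06 to 2.20. The 2 h value depended on replicate 2 of 2 h, without which it was 1.46 (adjusted p = 0.048), while it was 0.36 without replicate 1 of 2 h.

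CAT8 encodes the activator that stands above SIP4 in the cascade. Its scaled level was 1.22 and 0.78 at 0 h, 1.30 and 1.08 at 1 h, 1.30 and 0.93 at 2 h, 1.03 and 1.01 at 4 h, and 0.93 and 1.37 at 8 h. Dried and 0 h arrays overlapped at every time. The change at 1 h was 0.19 ± 0.27 (limma adjusted p = 0.84), with a 95% interval from -0.39 to 0.76. On each array the log2 ratio of SIP4 to CAT8 signal is free of scaling. Less its 0 h mean, that ratio was 1.76 and 2.12 at 1 h, 1.17 and 0.43 at 2 h, 1.00 and 0.19 at 4 h, and 0.08 and -0.71 at 8 h. This difference between the genes was not tested.

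ICL1, isocitrate lyase, splits isocitrate into succinate and glyoxylate and is the first enzyme that belongs to the glyoxylate cycle alone. Its unscaled signal spanned 956.3 to 5466 intensity units. The scaled levels were 5.10 and 4.51 at 0 h, 6.43 and 5.97 at 1 h, 5.48 and 4.79 at 2 h, 5.64 and 5.29 at 4 h, and 5.34 and 5.08 at 8 h. Both 1 h arrays were above every other array, and the 4 h arrays were above the 0 h arrays. ICL1 rose at 1 h by 1.39 ± 0.34 (limma adjusted p = 0.043), which is 2.62-fold. Its change was 0.66 ± 0.34 at 4 h (adjusted p = 0.52) and 0.40 ± 0.34 at 8 h (adjusted p = 0.80). The 1 h call was close to the threshold. Leaving out 1 array lost it for either array of 0 h (adjusted p = 0.0998 for replicate 1 and 0.404 for replicate 2), of 1 h (0.473 for replicate 1 and 0.142 for replicate 2) and of 4 h (0.0622 for replicate 1 and 0.063 for replicate 2). The estimate ran from 1.10 to 1.69 over these limma fits, and it was 1.25 (adjusted p = 0.082) with arrays scaled by their 75th percentile, where the median of all genes moved to -0.11. Relative to all genes it was 1.36 under both scalings. That agreement is arithmetic, since either scaling shifts the genes of an array together, and it is no evidence about the rise.

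MLS1, malate synthase, joins glyoxylate to acetyl-CoA and so takes up the product of isocitrate lyase. It had scaled levels of 6.25 and 5.72 at 0 h, 6.61 and 6.23 at 1 h, 6.49 and 5.91 at 2 h, 6.20 and 5.67 at 4 h, and 6.38 and 5.50 at 8 h, with overlap between dried and 0 h arrays at every time. The change at 1 h was 0.43 ± 0.38 (limma adjusted p = 0.71), with a 95% interval from -0.39 to 1.26. On each array the log2 ratio of ICL1 to MLS1 signal, less its mean at 0 h, was 0.03 and -0.03 at 0 h, 1.00 and 0.92 at 1 h, 0.17 and 0.05 at 2 h, 0.62 and 0.79 at 4 h, and 0.14 and 0.76 at 8 h. The ratio was thus higher on all 8 dried arrays than on both 0 h arrays, if barely so at 2 h. This difference was not tested.

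MDH2 is the cytosolic malate dehydrogenase, which returns malate to oxaloacetate for the cycle and for gluconeogenesis. This gene stood at scaled levels of 5.84 and 5.56 at 0 h, 6.60 and 6.55 at 1 h, 6.45 and 5.79 at 2 h, 6.19 and 5.74 at 4 h, and 5.95 and 5.63 at 8 h. The 1 h arrays lay above the 0 h arrays, but the change of 0.88 ± 0.33 did not pass (limma adjusted p = 0.23). It passed after quantile normalization (0.92, limma adjusted p = 0.0080) and after cyclic loess (0.85, adjusted p = 0.024). It also passed with array weights (adjusted p = 0.035) and with the 0 h and 1 h arrays alone in the fit (adjusted p = 0.043). In that order, 163, 142, 501 and 613 of all genes passed in these fits, beside 140 in the main fit. The MDH2 estimate was 0.88 in the last of these fits and the one before, as it was without replicate 1 of 2 h and of 8 h. The peroxisomal isoenzyme MDH3 had scaled levels of 5.42 and 5.32 at 1 h, against 5.23 and 5.06 at 0 h. The log2 ratio of MDH2 to MDH3 on the same array, less its 0 h mean, was 0.63 and 0.67 at 1 h, 0.41 and 0.23 at 2 h, 0.28 and 0.02 at 4 h, and 0.07 and -0.12 at 8 h. The mitochondrial isoenzyme MDH1, part of the tricarboxylic acid cycle, stood at 4.89 and 4.84 at 1 h, against 5.42 and 5.36 at 0 h, a change of -0.53 ± 0.30 (adjusted p = 0.49).

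**Figure D2:**
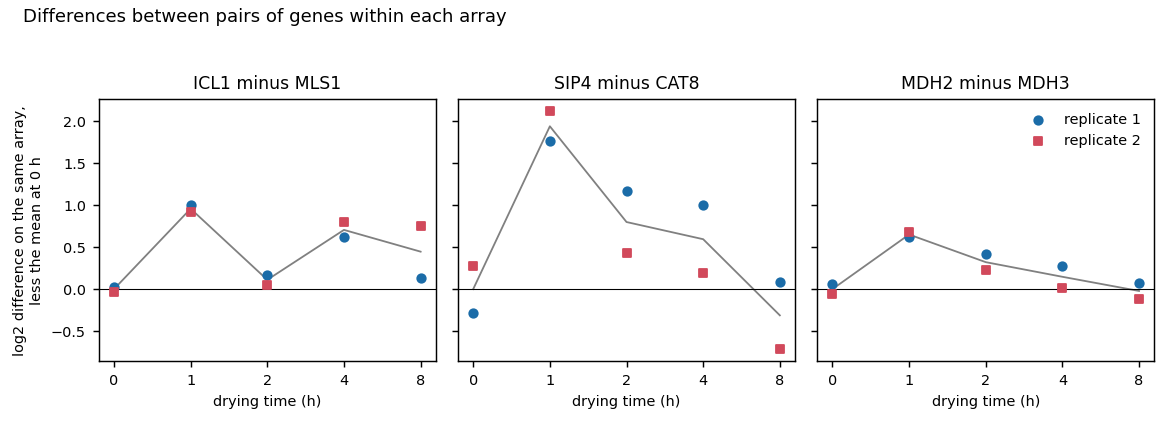
Log2 difference in signal between the genes of each pair on the same array, less the mean at 0 h, against drying time in hours (evenly spaced). The pairs shown are part of those computed. Circles are replicate 1, squares replicate 2 and lines join the means. At 1 h ICL1 over MLS1 stands at 1.00 and 0.92, SIP4 over CAT8 at 1.76 and 2.12, and MDH2 over MDH3 at 0.63 and 0.67.

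Neither of the enzymes that belong to gluconeogenesis alone passed in any comparison. PCK1, phosphoenolpyruvate carboxykinase, turns oxaloacetate into phosphoenolpyruvate. Scaled levels of PCK1 were 6.38 and 5.63 at 0 h, 6.37 and 6.08 at 1 h, 6.44 and 5.03 at 2 h, 6.0 and 5.74 at 4 h, and 6.30 and 5.60 at 8 h. The replicates at 2 h lay further apart than any pair of time means. The change at 1 h was 0.23 ± 0.44 (limma adjusted p = 0.90), with a 95% interval from -0.71 to 1.16. FBP1, fructose bisphosphatase, removes a phosphate near the end of the pathway. Its scaled level was 5.91 and 5.31 at 0 h, 5.85 and 5.66 at 1 h, 5.24 and 4.86 at 2 h, 5.44 and 5.27 at 4 h, and 5.34 and 5.14 at 8 h. The change was 0.14 ± 0.30 at 1 h (adjusted p = 0.91) and -0.56 ± 0.30 at 2 h (adjusted p = 0.46), where both arrays lay below both 0 h arrays. It was -0.26 ± 0.30 at 4 h (adjusted p = 0.87) and -0.37 ± 0.30 at 8 h (adjusted p = 0.80). The 2 h difference passed after quantile normalization (-0.67, limma adjusted p = 0.044) and not in the other alternatives tried. Of all genes, 163 passed at 2 h after quantile normalization, beside 81 in the main fit.

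ACS1 encodes the acetyl-CoA synthetase that yeast uses on acetate and ethanol. ACS1 had scaled levels of 6.21 and 5.88 at 0 h, 6.88 and 6.75 at 1 h, 7.06 and 6.61 at 2 h, 6.61 and 6.32 at 4 h, and 6.75 and 5.91 at 8 h. The dried arrays lay above the 0 h arrays at 1, 2 and 4 h and overlapped with them at 8 h. The change was 0.77 ± 0.36 at 1 h (limma adjusted p = 0.37), 0.79 ± 0.36 at 2 h (adjusted p = 0.37) and 0.42 ± 0.36 at 4 h (adjusted p = 0.77). At 1 h it passed after quantile normalization (0.82, adjusted p = 0.0058), after cyclic loess (0.75, adjusted p = 0.019) and without the 3 arrays of highest actin ratio (0.93, adjusted p = 0.047). The highest signal of any of the 10 genes was that of ACS1 on replicate 1 at 4 h, 7845 intensity units, below the highest signal of 8758 to 17464 units on the arrays.

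Of the carriers, SFC1 passed in comparisons with 1 h, and JEN1 passed in none. JEN1, the plasma membrane carrier that takes up lactate and pyruvate, had scaled levels of 6.28 and 5.63 at 0 h, 6.33 and 6.34 at 1 h, 6.56 and 5.83 at 2 h, 6.04 and 5.67 at 4 h, and 6.13 and 5.38 at 8 h. Its 1 h arrays lay just above the 0 h arrays, and the change of 0.38 ± 0.37 did not pass (limma adjusted p = 0.75). SFC1, which exchanges cytosolic succinate for mitochondrial fumarate and so drains the product of isocitrate lyase, had scaled levels of 2.83 and 3.44 at 0 h, 4.17 and 3.98 at 1 h, 2.63 and 2.91 at 2 h, 3.66 and 3.70 at 4 h, and 2.31 and 3.27 at 8 h. Both 1 h and both 4 h arrays were above the 0 h arrays, while those of 2 h and 8 h overlapped with them. The change was 0.94 ± 0.31 at 1 h (limma adjusted p = 0.16), -0.36 ± 0.31 at 2 h (adjusted p = 0.70), 0.55 ± 0.31 at 4 h (adjusted p = 0.59) and -0.34 ± 0.31 at 8 h (adjusted p = 0.83). The 1 h difference passed with array weights (limma adjusted p = 0.0168) and with the 0 h and 1 h arrays alone in the fit (adjusted p = 0.00459). Of all genes, 501 and 613 passed in these fits, beside 140 in the main fit. The SFC1 estimate was 0.94 in both, as it was without replicate 1 of 2 h and of 8 h. At 2 h against 1 h SFC1 fell by 1.30 ± 0.31 (adjusted p = 0.049). That was the single call among the 10 genes in this step, beside 1.03% of all genes lower and 0.82% higher. It was lost, with limma adjusted p from 0.0655 to 0.365, without any 1 of the arrays of 0, 1, 2 or 4 h, and it was lost after quantile normalization (-1.07, adjusted p = 0.106), cyclic loess (-1.12, adjusted p = 0.105) and scaling by the 75th percentile (-1.06, adjusted p = 0.109). At 4 h against 2 h, 0 of the 10 passed and SFC1 had an unadjusted p under 0.05 upward, beside 0% of all genes passing, and 5.59% upward and 1.85% downward at that unadjusted level. At 8 h against 4 h, 0 of the 10 passed and SIP4 and SFC1 had an unadjusted p under 0.05 downward, beside 0% of all genes passing upward and 0.0186% downward, and 2.55% upward and 4.9% downward unadjusted. At 0, 2 and 8 h the lower SFC1 level was on replicate 1, the array with the higher actin ratio. At 4 h the SFC1 levels and the actin ratios, 3.15 and 3.1, were close. At 1 h replicate 1 also had the higher ratio, 3.9 against 2.64, but the higher SFC1 level. The part of RNA integrity in this was not tested.

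At 2, 4 and 8 h none of the 10 genes passed against 0 h by limma. At an unadjusted p under 0.05 there were 2 at 2 h, SIP4 and ACS1, both higher, beside 5.98% of all genes higher and 7.12% lower. There were 0 at 4 h, beside 6.73% higher and 3.99% lower, and 0 at 8 h, beside 4.68% higher and 4.59% lower. After adjustment 0.82% of all genes were higher and 0.69% lower at 2 h, 1.08% higher and 0.373% lower at 4 h, and 0.503% higher and 0.447% lower at 8 h. Both arrays lay above both 0 h arrays for SIP4 and ACS1 at 2 h, beside 18.6% of all genes, and below for FBP1, beside 24.4%. They lay above for SIP4, ICL1, ACS1 and SFC1 at 4 h, beside 25.5% of all genes, and at 8 h for 0 of the 10 above and 0 below, beside 19.3% and 16.9%. All 8 dried arrays lay above both 0 h arrays for 0 of the 10 and below for 0, beside 4.49% and 3.88% of all genes. The median change of the 10 genes was 0.23 at 2 h, 0.14 at 4 h and -0.05 at 8 h, beside -0.05, 0.02 and 0.01 over all genes. Estimates ran from -0.56 for FBP1 to 0.91 for SIP4 at 2 h, from -0.26 for FBP1 to 0.66 for ICL1 at 4 h, and from -0.37 for FBP1 to 0.40 for ICL1 at 8 h. The sign of each median turned with 1 array left out: it was -0.07 at 2 h without replicate 1 of 2 h, -0.04 at 4 h without replicate 2 of 0 h, and 0.21 at 8 h without replicate 2 of 8 h. In the F test over the 4 dried times, 1 of the 10 genes passed, SIP4 (F = 13.4, adjusted p = 0.0071), beside 3.28% of all genes. SFC1 (adjusted p = 0.066) and ICL1 (adjusted p = 0.15) came next.

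**Figure D3:**
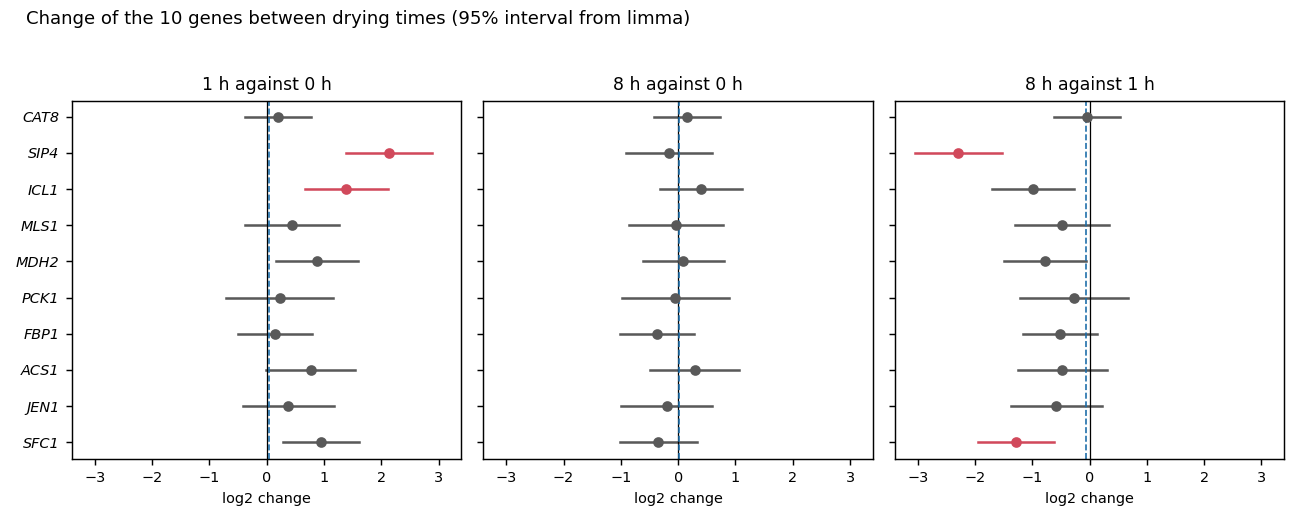
Log2 change of the 10 genes at 1 h against 0 h, 8 h against 0 h and 8 h against 1 h, with 95% intervals from limma. Red marks an adjusted p under 0.05 and the dashed line is the median change of all 5365 genes. SIP4 is at 2.13 in the left panel and at -2.29 in the right one, and no interval in the middle panel excludes 0.

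Late against early drying compares samples that had all been in the oven, and SIP4 and SFC1 were lower late. At 8 h against 1 h, 2 of the 10 genes were lower, SIP4 and SFC1, and 0 were higher, beside 2.42% of all genes lower and 1.03% higher. This comparison shares the 1 h arrays with that of 1 h against 0 h, so a peak at 1 h enters both. Estimates were below 0 for all 10 genes, from -0.04 for CAT8 to -2.29 for SIP4, with a median of -0.55, beside -0.06 over all genes. CAT8 turned to 0.11 with arrays scaled by their 75th percentile, where the median of all genes was 0.09, to 0.07 without replicate 1 of 1 h and to 0.18 without replicate 1 of 8 h, and PCK1 turned to 0.08 without replicate 2 of 8 h. Both 8 h arrays lay below both 1 h arrays for 6 of the 10 genes, SIP4, ICL1, MDH2, FBP1, JEN1 and SFC1, beside 27.5% of all genes. ICL1 and MDH2 joined SIP4 and SFC1, for 4 in all, at an unadjusted p under 0.05, a level that 12.3% of all genes reached downward.

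SIP4 stood at 0.46 and 0.11 at 8 h, against 2.50 and 2.65 at 1 h, and fell by 2.29 ± 0.35 on the log2 scale (limma adjusted p = 0.0030), to a level 4.89-fold lower. The limma adjusted p was 0.0555 without replicate 2 of 1 h. SFC1 stood at 2.31 and 3.27 at 8 h, against 4.17 and 3.98 at 1 h, and fell by 1.29 ± 0.31 (adjusted p = 0.035). Its difference was -0.81 (limma adjusted p = 0.289) when replicate 1 of 8 h was left out, -1.20 (0.296) or -1.38 (0.158) when replicate 1 or 2 of 1 h was, and -1.13 (0.0529) with arrays scaled by their 75th percentile. ICL1 stood at 5.34 and 5.08 at 8 h, against 6.43 and 5.97 at 1 h, a difference of -0.99 ± 0.34 (adjusted p = 0.12). MDH2 differed by -0.78 ± 0.33 (adjusted p = 0.23), JEN1 by -0.58 ± 0.37, FBP1 by -0.52 ± 0.30, ACS1 by -0.48 ± 0.36, MLS1 by -0.48 ± 0.38 and PCK1 by -0.27 ± 0.44, with adjusted p values from 0.41 to 0.81 for the last 5. The call count was 8 of 10 after quantile normalization and 5 of 10 after cyclic loess, all lower. Of all genes, 241 and 234 passed in these fits in either direction, beside 185 in the main fit.

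Around these genes, other enzymes and carriers of the pathway did not pass against 0 h. Of 17 enzymes that use acetate, ethanol or lactate or are linked to glyoxylate, 0 passed at any dried time against 0 h by limma. At an unadjusted p under 0.05, 3 were higher and 0 lower at 1 h, beside the 10.3% and 3.56% of all genes given above. At 2 h 1 was higher and 1 lower, beside 5.98% and 7.12%. At 4 h 0 were higher and 1 lower, beside 6.73% and 3.99%, and at 8 h 0 and 2, beside 4.68% and 4.59%. Their changes at 1 h ran from -0.62 to 1.20 with a median of -0.05, the highest being that of ADH2, the alcohol dehydrogenase that oxidises ethanol. Of 12 genes of the carnitine shuttle and other carriers, 0 passed. At an unadjusted p under 0.05, 4 were higher and 1 lower at 1 h, beside 10.3% and 3.56% of all genes. At 2 h 1 was higher and 0 lower, beside 5.98% and 7.12%, and at 4 h and 8 h there were 0 in either direction. Their changes at 1 h ran from -0.58 to 1.15 with a median of 0.03, the highest being that of ADY2, a plasma membrane acetate transporter. ADH2 and ADY2 are named here after their values were seen. Of 9 genes at the steps where glycolysis and gluconeogenesis oppose each other, 0 passed against 0 h. At an unadjusted p under 0.05, 1 was higher at 1 h, beside 10.3% of all genes. That gene was FBP26, whose product favours gluconeogenesis. At 2 h and 4 h 0 were past that level, and at 8 h 1 was lower, beside 4.59% of all genes. Of 9 enzymes of the steps shared with glycolysis, 0 passed and 0 had an unadjusted p under 0.05 at any time. TDH2, a copy of glyceraldehyde phosphate dehydrogenase, had no probe set of its own.

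At 8 h against 1 h, 1 of the 17 enzymes, 1 of the 12 carriers and 1 of the 9 genes at opposing steps were lower, and 0 were higher. Of the 9 enzymes of shared steps, 0 passed in either direction. Over all genes, 2.42% were lower and 1.03% higher. ICL2, a mitochondrial relative of isocitrate lyase that acts on methylisocitrate, stood at 2.61 and 1.25 at 8 h, against 3.71 and 3.58 at 1 h, and fell by 1.72 ± 0.39 (limma adjusted p = 0.024). Without replicate 2 of 8 h the difference was -1.04 (adjusted p = 0.092), and without replicate 1 or 2 of 1 h the adjusted p was 0.204 or 0.143. It was 0.0629 with arrays scaled by their 75th percentile. ATO3, a plasma membrane protein of the acetate and ammonium transporter family, stood at 4.39 and 4.37 at 8 h, against 5.54 and 5.51 at 1 h, and fell by 1.15 ± 0.27 (adjusted p = 0.030). FBP26, which breaks down fructose bisphosphate's signalling isomer and so favours gluconeogenesis, stood at 1.47 and 2.00 at 8 h, against 3.23 and 2.69 at 1 h, and fell by 1.22 ± 0.31 (adjusted p = 0.043). For ATO3 the limma adjusted p was 0.258 or 0.189 when replicate 1 or 2 of 1 h was left out, 0.0971 when replicate 1 of 8 h was, and 0.0529 with scaling by the 75th percentile. That of FBP26 was 0.0537 to 0.384 without any 1 of the arrays of 0, 1 or 4 h or replicate 1 of 8 h, and 0.0578 with that scaling.

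Among 20 regulators, 1 passed at 2 h and 1 at 4 h, both lower, beside 0.69% of all genes lower at 2 h and 0.373% at 4 h, and 0 passed at 1 h or 8 h against 0 h. At an unadjusted p under 0.05, 1 was higher and 2 lower at 1 h, beside 10.3% and 3.56% of all genes. Later 0 were higher, and 5 were lower at 2 h, 4 at 4 h and 2 at 8 h, beside 7.12%, 3.99% and 4.59% of all genes lower. At 8 h against 1 h, 1 passed and was lower, beside 2.42% of all genes lower and 1.03% higher. USV1, a zinc finger factor of growth on carbon sources other than sugars, stood at 1.73 and 1.96 at 2 h, against 2.98 and 3.35 at 0 h, and fell by 1.32 ± 0.29 (limma adjusted p = 0.036). MIG2, a repressor that acts with Mig1 on glucose-repressed genes, stood at -1.29 and -0.73 at 4 h, against 0.99 and 0.47 at 0 h, and fell by 1.74 ± 0.35 (adjusted p = 0.023). Its dried arrays lay below both 0 h arrays at every time. GLC7, the catalytic subunit of the phosphatase that inactivates Snf1, stood at 1.83 and 2.22 at 8 h, against 3.63 and 3.20 at 1 h, and fell by 1.39 ± 0.30 (adjusted p = 0.018). The USV1 call was lost without any 1 of the arrays of 0, 1 or 2 h (limma adjusted p from 0.055 to 0.299), and that of MIG2 without any 1 of the arrays of 0 or 4 h (0.0546 to 0.323). That of GLC7 was lost without either array of 1 h or replicate 1 of 8 h (0.0755 to 0.249).

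The GID ubiquitin ligase, which destroys gluconeogenic enzymes, held the largest change that passed in these lists. VID24, also called GID4, is the subunit that recognises those enzymes. Its scaled level was 4.67 and 3.93 at 0 h, 3.30 and 3.15 at 1 h, 1.88 and 1.63 at 2 h, 2.97 and 2.87 at 4 h, and 1.86 and 2.89 at 8 h, below both 0 h arrays on all 8 dried arrays. At 2 h it fell by 2.55 ± 0.33 (limma adjusted p = 0.0011), which is 5.84-fold, and this call held with each array left out. At 8 h it fell by 1.92 ± 0.33 (adjusted p = 0.011), and the value was -1.40 (adjusted p = 0.092) without replicate 1 of 8 h and -1.55 (adjusted p = 0.22) without replicate 1 of 0 h. Without the 3 arrays of highest actin ratio the 8 h value was -1.03 (adjusted p = 0.226). VID24 did not pass at 1 h (-1.07, adjusted p = 0.12) or at 4 h (-1.38, adjusted p = 0.055). Of the 8 GID genes tested, VID24 was the single call against 0 h, where 0.69% of all genes were lower at 2 h and 0.447% at 8 h. At an unadjusted p under 0.05, 2 of the 8 were higher and 1 lower at 1 h, beside 10.3% and 3.56% of all genes. Later 0 were higher, and 2 were lower at 2 h, 2 at 4 h and 3 at 8 h, beside 7.12%, 3.99% and 4.59% of all genes lower. At 8 h against 1 h, 1 of the 8 passed, UBC8, beside 2.42% of all genes lower and 1.03% higher. There 4 of the 8 were lower and 0 higher at an unadjusted p under 0.05, beside 12.3% of all genes lower. UBC8, the ubiquitin-conjugating enzyme of the complex, stood at 3.20 and 3.85 at 8 h, against 4.64 and 4.57 at 1 h, and fell by 1.08 ± 0.28 (adjusted p = 0.046). Without replicate 1 of 8 h that difference was -0.75 (limma adjusted p = 0.297), and the adjusted p was 0.0617 to 0.314 without any 1 of the arrays of 0, 1 or 4 h and 0.0616 with arrays scaled by their 75th percentile.

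**Figure D4:**
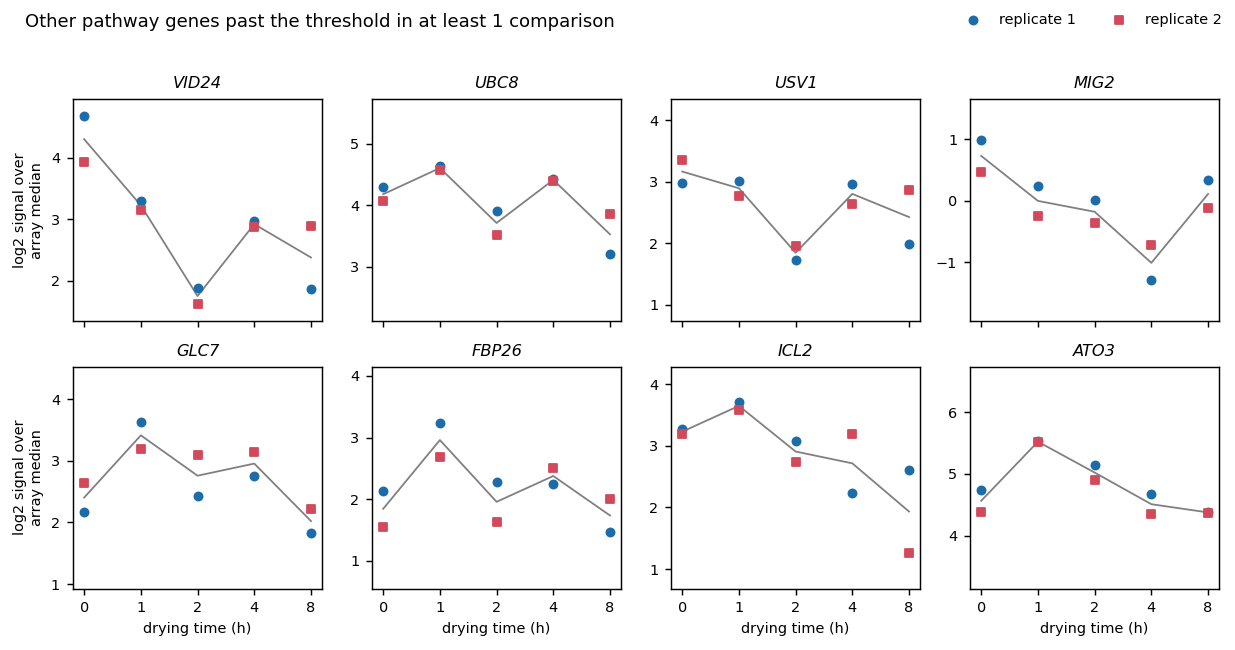
Scaled level (log2 signal over the array median) of the 8 other pathway genes that passed the threshold in at least 1 comparison, against drying time in hours (evenly spaced). Circles are replicate 1, squares replicate 2 and lines join the means. VID24 stands at 4.67 and 3.93 at 0 h and at 1.88 and 1.63 at 2 h, and USV1 is also lowest at 2 h.

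The 10 genes varied together only in part. Over the 10 arrays their 45 pairwise Pearson correlations ran from -0.09 to 0.95, with a median of 0.55, and pairs share array scaling, so these values are a description. The genes outside the set whose scaled levels ran closest to the mean of the 10 were SIS1, an Hsp40 co-chaperone (r = 0.96), SAR1, a GTPase of vesicle budding (r = 0.94), YJR096W (r = 0.93), CDC27, a subunit of the anaphase-promoting complex (r = 0.93), and RPB2, an RNA polymerase subunit (r = 0.93), over 10 arrays. YJR096W lies next to SFC1 in the R64 gene table, with 0 genes between them. Among the genes closest to ICL1 alone were SSA2, an Hsp70 chaperone (r = 0.96), CDC27 (r = 0.95), the mitochondrial chaperonin subunit HSP10 (r = 0.94), and RPN4, the activator of proteasome genes (r = 0.93).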

How the data were processed

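Deposited values were linear probe set intensities, 1 column per array. GCOS, the software of the array's maker, appears in the submitters' processing notes, with its version not given in the sources used here. The labels describe a further ratio normalization by the authors for a separate table, which these intensities do not carry. Of 9335 probe sets, 60 controls were left out; of the rest, 6504 were assigned to 1 gene, 328 to several and 2443 to none, per the platform annotation, with symbols updated by gene identifier to the R64 table. Signals were expressed relative to the array's median over 9275 probe sets, with 0.1 of that median as the lowest value, on the log2 scale. Each gene took its brightest probe set, and genes with a mean log2 below -2.32 were dropped, which left 5365 of 5656. A model of 5 group means was fitted over all 10 arrays with limma 3.58.1 in R 4.3.3, with an intensity trend, two-sided tests and Benjamini-Hochberg adjustment over all genes for each of 8 comparisons and for an F test. The script was tested on simulated data. The number of arrays limits the precision, and the p-values measure the spread between these arrays. All 10 genes are named, as are the genes of 6 pathway lists past the threshold at a dried time against 0 h or at 8 h against 1 h, the isoenzymes MDH1, MDH3 and ICL2, and the 5 genes nearest in profile to the members' mean and to ICL1, of which 1 is not reported here. A further pair of lists, sporulation and mating genes, marks other cell states. Members and lists were chosen with earlier results of these data known. Alternatives covered scaling, floor, filter, probe set choice, variance model, a replicate block and arrays left out. Sequences were not used here, and coordinates served only to place YJR096W next to SFC1.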

Additional observations from a re-analysis of the deposited data

How the results depend on the processing

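All 25 alternatives ran; leaving out the 3 arrays of highest actin ratio (replicate 1 of 0, 2 and 8 h) was chosen after seeing the data. None of the called changes of the 10 genes changed sign, while 22 of their 40 changes against 0 h did under at least 1 alternative. Over all genes, 140 passed at 1 h against 0 h in the main fit. That number was 120 with scaling by the 75th percentile, 109 with no filter on dim genes and 1 with no scaling. It was 42 with the floor at 0.5 of the median and 36 with no intensity trend. It was 163 with quantile normalization, 142 with cyclic loess, 501 with array weights and 613 with the compared groups alone. At 2 h against 0 h, 81 of all genes passed, and 163 with quantile normalization. Of the 10 genes, 2 passed at 1 h against 0 h. That count was 1 with scaling by the 75th percentile or no filter on dim genes, 0 with no scaling, a floor at 0.5 of the median or no intensity trend, and 4 with quantile normalization, cyclic loess, array weights, the compared groups alone or without replicate 1 of 2 h and of 8 h. It was 3, with ACS1 added, without the 3 arrays of highest actin ratio, and 0 to 2 with 1 array left out. At 2 h it was 0, 1 with quantile normalization, and 0 to 1 with 1 array left out. At 4 h and 8 h against 0 h it was 0 in every alternative. At 8 h against 1 h it was 2, 8 with quantile normalization, 5 with cyclic loess, 0 with no scaling or the floor at 0.5, and 0 to 2 with 1 array left out. It was 1 with the 75th percentile, no filter, no trend, the compared groups alone, without replicate 1 of 2 h and of 8 h, or without the 3 arrays of highest actin ratio. Over all genes, 185 passed at 8 h against 1 h in the main fit, 241 with quantile normalization and 234 with cyclic loess. That number was 171 with the 75th percentile, 110 with no filter, 61 with no trend and 119 with the compared groups alone. It was 0 with no scaling and 52 with the floor at 0.5. For the steps and the F test, such numbers are not given here for the alternatives. In steps between drying times 1 of the 10 genes passed, SFC1. That count was 0 with the 75th percentile, no scaling, floors at 0.5 of the median or 0.01 units, no filter, the mean of a gene's probe sets or no trend. It was 3 with quantile normalization (ICL1, MDH2 and FBP1, and not SFC1), 1 with cyclic loess (ICL1, and not SFC1), 4 without replicate 1 of 2 h and of 8 h, 5 without the 3 arrays of highest actin ratio and 0 to 1 with 1 array left out. In the F test 1 passed, 0 with no scaling, the floor at 0.5 or no trend, 2 with cyclic loess or without the 3 arrays of highest actin ratio, 3 with array weights or without replicate 1 of 2 h and of 8 h, 5 with quantile normalization, and 0 to 2 with 1 array left out. Fewer arrays or genes entered some of these fits, and otherwise the cause was not tested. With no scaling or the floor at 0.5, the calls of the other pathway genes named (ICL2, ATO3, FBP26, USV1, MIG2, GLC7, VID24 and UBC8) were lost as well. Changes that took the other sign had not passed. CAT8 at 8 h against 1 h was 0.11 with the 75th percentile, 0.052 with quantile normalization, 0.0628 with cyclic loess and 0.18 without replicate 1 of 8 h, with -0.26 to 0.18 over the arrays left out. FBP1 at 1 h was -0.0012 with the 75th percentile and -0.16 to 0.44 over the arrays left out, and at 4 h it was 0.0405 without the 3 arrays of highest actin ratio and -0.56 to 0.0405 over the arrays left out. SFC1 at 8 h was 0.13 without replicate 1 of 2 h and of 8 h, with -0.82 to 0.13 over the arrays left out. With 1 array left out CAT8 at 1 h was -0.0263 to 0.41, PCK1 at 1 h -0.15 to 0.60, SIP4 at 8 h -0.34 to 0.015 and PCK1 at 8 h against 1 h -0.62 to 0.0761. Over all genes the median change with the 75th percentile was -0.11 at 1 h against 0 h (0.04 otherwise) and 0.09 at 8 h against 1 h (-0.06 otherwise).

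Replicate numbers are shared between times. Over all 5365 genes, same-numbered arrays had deviations from their group means that correlated by -0.06 to 0.17, so the numbers were not taken as pairs. The 10 genes themselves leaned to replicate 1, with 8, 8, 9 and 8 of them higher on it at 0, 1, 2 and 8 h. At 4 h 1 of the 10 was higher on replicate 2 and the rest on replicate 1. Pairing was not tested on these genes alone. With a replicate block the count of the 10 genes was 2 in steps between drying times and 3 in the F test, and ICL1 passed at 8 h against 1 h (limma adjusted p = 0.0263).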
